A study of Homo sapiens with 8 samples.

Results

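The BCL2 family decides whether mitochondria release the proteins that start apoptosis, and its RNA levels were followed here in leukemia cells that had become resistant to degradation of CTCF. The members described are BCL2, BCL2L1, MCL1, BAX, BAK1, BCL2L11, BBC3, PMAIP1, BID and BAD. Their rows were found by gene symbol, and each matched 1 row, so they are 10 of the 60754 rows of the expression table. All 10 were among the 15614 genes tested. Anti-apoptotic members such as BCL2, BCL-XL (from BCL2L1) and MCL1 hold the pore-forming effectors BAX and BAK in check at the outer mitochondrial membrane. BH3-only members, made or activated under stress, bind the anti-apoptotic proteins or activate the effectors, and once BAX and BAK form pores, cytochrome c leaves and caspases are activated. Lymphoid leukemia cells often depend on BCL2 or MCL1 for survival, and both proteins are targets of BH3-mimetic drugs.

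The cells were SEM, an established human line of KMT2A-rearranged B-cell acute lymphoblastic leukemia. Both CTCF alleles carried miniAID-mClover3, a degron tag fused to a fluorescent protein, and lentivirus supplied an OsTIR1 adaptor with Zeocin resistance, so that the auxin analog 5-Ph-IAA led to CTCF degradation (the AID2 system). Clones C17.2 and C3.2 each descended from 1 sorted cell, and parental cells of both were untreated. Resistant cells of both had been kept in 1 μM 5-Ph-IAA with 100 μg/ml Zeocin until day 36 and were then taken out of the drugs. Per the study, resistant C17.2 carried a CTCF cut short ahead of the tag, beside tagged CTCF that came back without 5-Ph-IAA and still responded to it. Resistant C3.2 carried a missense mutation in the tag. Each of the 4 groups had 2 libraries, and the sources used here do not say whether these came from separate cultures, so p-values measure only the spread between these libraries, which may be technical. Replicates 1 and 2 of a group were numbered here in the order of the library names. The library names of the 2 clones begin with different number series, whose meaning the sources used here do not state. Clone and any batch behind these numbers cannot be told apart, and each comparison below is within a clone.

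Values are TPM (a share of all transcripts, corrected for transcript length), which keep no sequencing depth, so the depth of each library is unknown. Scaling factors between libraries ranged from 0.893 to 1.16, and protein-coding genes took 36.0% to 43.3% of the TPM. Pearson's r between the replicates of a group, across genes, was 0.968 to 0.979. The B-cell precursor markers summed to 728 to 946 TPM per library, with DNTT the single marker of 10 under 1 TPM throughout, and the 4 KMT2A leukemia markers summed to 367 to 500.2 TPM. The T-cell markers summed to at most 0.25, the erythroid markers to at most 0.52 and the myeloid markers to at most 3.47 TPM. The stromal and endothelial list summed to 3.47 to 12.3 TPM, with 1 of its 3 genes at 0 throughout, and 1 of its 2 tested genes was higher in resistant cells of each clone. In resistant cells 6 of 9 tested B-cell precursor markers were lower in C17.2, and 5 were lower and 1 higher in C3.2. Over all tested genes 13.4% were higher and 13.9% lower in C17.2 at a limma adjusted p under 0.05. In C3.2 these shares were 4.43% and 6.91%. IGLL1, part of the surrogate light chain, had log2 fold changes of -2.16 and -2.35 (limma adjusted p = 2.23e-05 and 0.000118). Whether this shift in B-cell markers had a part in the results below was not tested.

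The promoters of 3 members that changed are shown first, since BBC3 and PMAIP1 fell together and BAX rose. Each sequence runs 5′ to 3′ on the strand of its gene, from 250 bases before to 50 bases from the RefSeq start on, on GRCh38.p14, with the E-box CACGTG in capitals.
BBC3, chr19:47232618-47232917, minus strand: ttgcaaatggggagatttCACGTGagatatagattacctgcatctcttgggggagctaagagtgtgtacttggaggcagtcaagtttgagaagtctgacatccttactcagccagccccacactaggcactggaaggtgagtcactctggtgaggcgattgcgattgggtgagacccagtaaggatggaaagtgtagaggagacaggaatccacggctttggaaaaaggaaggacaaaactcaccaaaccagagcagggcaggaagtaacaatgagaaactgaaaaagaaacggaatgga
PMAIP1, chr18:59899746-59900045, plus strand: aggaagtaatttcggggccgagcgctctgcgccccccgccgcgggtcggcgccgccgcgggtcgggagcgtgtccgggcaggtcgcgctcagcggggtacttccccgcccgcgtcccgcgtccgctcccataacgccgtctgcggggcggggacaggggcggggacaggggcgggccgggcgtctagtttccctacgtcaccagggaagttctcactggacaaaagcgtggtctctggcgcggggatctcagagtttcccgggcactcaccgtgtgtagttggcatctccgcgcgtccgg
BAX, chr19:48954625-48954924, plus strand: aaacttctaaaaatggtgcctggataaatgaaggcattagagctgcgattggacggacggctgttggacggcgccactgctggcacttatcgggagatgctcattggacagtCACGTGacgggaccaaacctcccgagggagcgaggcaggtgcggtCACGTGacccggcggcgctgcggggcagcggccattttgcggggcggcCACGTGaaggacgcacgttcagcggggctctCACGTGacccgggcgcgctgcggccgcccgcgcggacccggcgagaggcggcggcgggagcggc
The window of BBC3 held 48.0% G and C with 5 CpG sites, that of PMAIP1 71.3% with 42, and that of BAX 67.3% with 38, beside medians of 58.7% and 14 over all 35116 promoters in the RefSeq table. The motifs, searched on both strands, were chosen after expression values had been seen, and a match is a description of letters. The E-box stood once in the BBC3 window, 232 bases before the start, 4 times in that of BAX and nowhere in that of PMAIP1, and 7.26% of all promoters hold at least 1. The GC box GGGCGG stood 4 times in the PMAIP1 window, where 45.0% of all promoters hold at least 1. It was found in promoters of 7 of the 9 members with an entry, and the E-box in 3 (BAX, BBC3 and BID). MCL1 had no entry and was not searched. Some members have more than 1 window, in part overlapping. Counted by window, as for all promoters, the GC box stood in 11 of 15 and the E-box in 4. TGACGTCA (cAMP response element, 1.85% of all promoters) and TGATGNAA (CHOP-ATF4 element, 3.62%) stood in no promoter of the 9 members searched. The FOXO site GTAAACA (3.42%) stood in that of BCL2L11. The motif TATAAA (11.5%) stood in 1 window of BCL2L1.

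Levels of the 10 members ranged from 1.03 to 76.71 TPM over the 8 libraries. BCL2 was the highest and MCL1 the second highest in all 4 groups, and BAK1 was the second lowest and BBC3 the lowest in all 4. In parental C17.2, BCL2 stood at 64.4 ± 3.3 TPM (SD, n = 2), MCL1 at 43.2 ± 3.4 and BBC3 at 4.55 ± 0.49. In parental C3.2, BCL2 stood at 58.2 ± 1.1 TPM, MCL1 at 48.2 ± 0.49 and BBC3 at 3.05 ± 0.15. Neighbors in the order whose libraries overlapped were BAX and PMAIP1 in parental C17.2, BAD and BCL2L1 in parental C3.2, BCL2L11 and BID as well as BCL2L1 and PMAIP1 in resistant C17.2, and BAX and BCL2L11 in resistant C3.2. PMAIP1 was sixth of the 10 in both parental groups and seventh in both resistant groups.

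**Figure D1:**
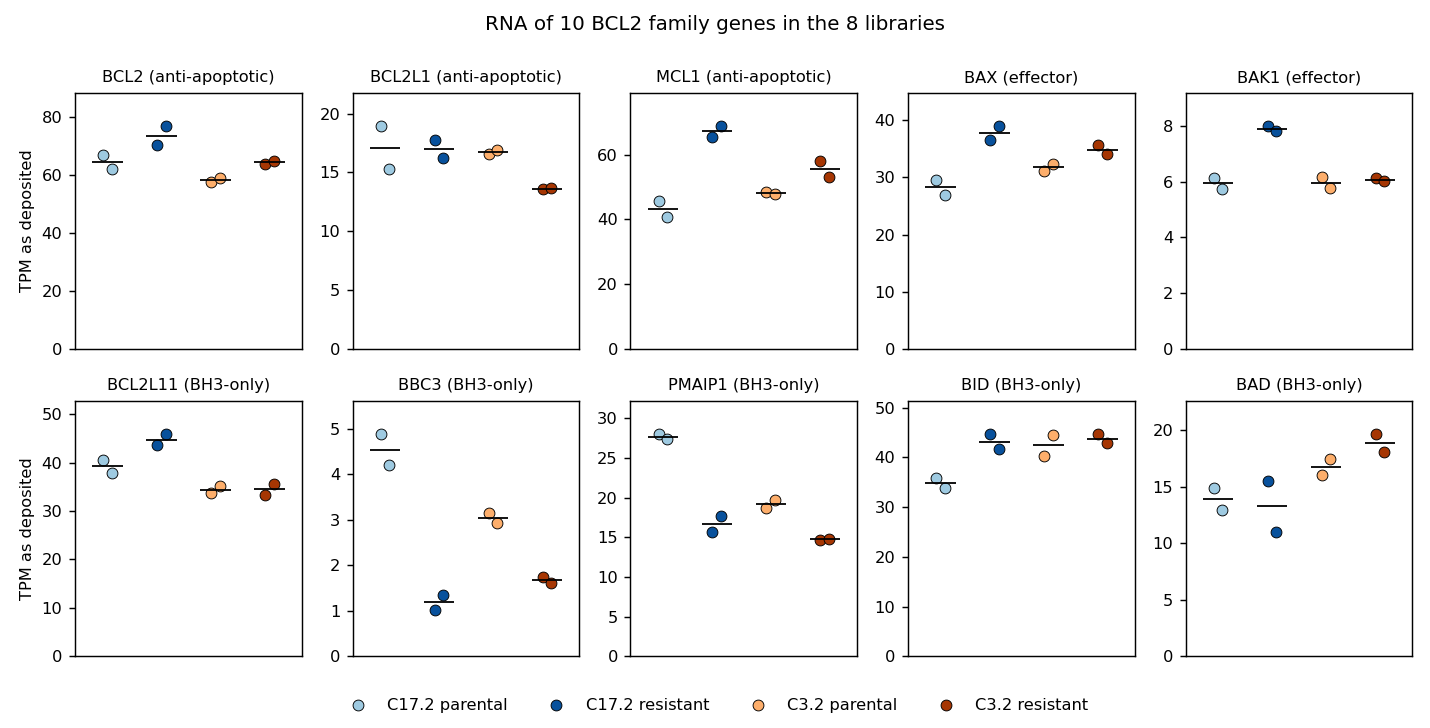
TPM as deposited (linear axis from 0, one scale per gene) of the 10 members in each of the 8 libraries, colored by group, with a bar at the mean of the 2 libraries of a group. BBC3 and PMAIP1 lie lower in both resistant groups than in their parental groups, and MCL1, BAX and BCL2 lie higher before scaling. The step of MCL1 is smaller in C3.2, and for BAX a difference between the clones was not shown.

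The question of the comparison was which members differed between resistant and parental cells of the same clone. In C17.2, 4 of 10 members passed the threshold (limma, Benjamini-Hochberg adjusted p under 0.05 over all tested genes), where 27.3% of all tested genes did. MCL1 and BAX were higher (2 of 10, beside 13.4% of all genes) and BBC3 and PMAIP1 lower (2 of 10, beside 13.9%). In C3.2, 2 of 10 passed, BBC3 and PMAIP1, both lower, where 11.3% of all genes passed and 6.91% passed as lower. No member passed as higher in C3.2 by limma, where 4.43% of all genes did, and 1 member, MCL1, was higher at an unadjusted p under 0.05. Both members that passed in both clones fell in both, and 6 members passed in neither clone. The shares of all tested genes that passed in both or in neither are not given here, so these counts are descriptions. The median log2 fold change of the 10 members was 0.03 in C17.2 and -0.03 in C3.2, beside 0 over all tested genes in each. Fold changes below are on the log2(scaled TPM + 1) scale, which understates the change of low genes such as BBC3, and no comparison of 2 libraries with 2 can go below an exact permutation p of 0.333.

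**Figure D2:**
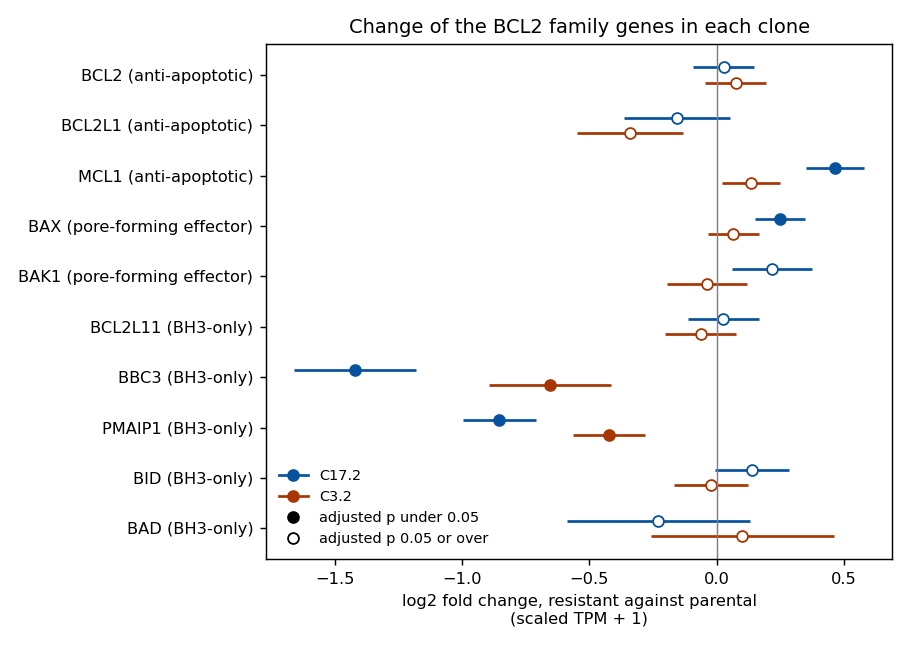
Log2 fold change of scaled TPM + 1, resistant against parental, for the 10 members in C17.2 (blue) and C3.2 (brown), with 95% intervals from limma and filled points for adjusted p under 0.05. BBC3 (-1.42 and -0.65) and PMAIP1 (-0.85 and -0.42) lie below 0 in both clones, and MCL1 (0.47) and BAX (0.25) above 0 with filled points in C17.2.

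Among the BH3-only members, BBC3 and PMAIP1 fell in both clones. BBC3 encodes PUMA, a potent BH3-only protein that stress factors are known to induce, and it lies on chromosome 19 (GRCh38, 47220822 to 47232766, minus strand). In C17.2 the parental libraries held 4.89 and 4.20 TPM and the resistant ones 1.03 and 1.35. In C3.2 the parental libraries held 3.15 and 2.94 TPM and the resistant ones 1.74 and 1.62. In both clones each resistant library lay below each parental one, and the values of resistant C17.2 were the lowest of the 8. As in any bulk sample, fewer cells with the RNA and less RNA per cell cannot be told apart. The log2 fold change was -1.42 (95% interval -1.66 to -1.18) in C17.2 and -0.65 (-0.89 to -0.42) in C3.2, with limma adjusted p = 0.00027 and 0.0123. As a ratio of mean scaled TPM, with no pseudocount, parental cells held 4.27 times the BBC3 level of resistant cells in C17.2 and 1.90 times in C3.2. With a pseudocount of 0.1 the log2 fold changes were -2.00 and -0.89. From the largest fall, BBC3 ranked 225 of 15614 genes in C17.2 and 607 in C3.2.

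PMAIP1 encodes NOXA, a BH3-only protein that binds mainly MCL1 and is known to promote its degradation, and it lies on chromosome 18 (59899996 to 59904305, plus strand). In C17.2 the parental libraries held 28.01 and 27.33 TPM and the resistant ones 15.66 and 17.67. In C3.2 the parental libraries held 18.65 and 19.66 TPM and the resistant ones 14.71 and 14.77. The groups did not overlap in either clone. The log2 fold change was -0.85 (-0.99 to -0.71) in C17.2 and -0.42 (-0.56 to -0.28) in C3.2, with limma adjusted p = 0.000263 and 0.00966. Parental cells held 1.86 and 1.36 times the mean scaled TPM of resistant cells. The calls in C3.2 depended on single libraries and on the shared estimate of spread. Without parental replicate 1 the adjusted p was 0.0869 for BBC3 and 0.0728 for PMAIP1, without parental replicate 2 it was 0.0589 and 0.0704, and without resistant replicate 2 that of BBC3 was 0.0548. With C3.2 fitted alone the limma adjusted p was 0.0777 for BBC3 and 0.0745 for PMAIP1. In C17.2 both genes passed in 16 of 16 alternatives.

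BCL2L11, BID and BAD did not pass in either clone. BCL2L11 encodes BIM, the BH3-only protein that sets the response of lymphoid cells to cytokine withdrawal and glucocorticoids, and lies on chromosome 2 (111119378 to 111168444, plus strand). It held 40.54 and 37.93 TPM in parental and 43.56 and 45.91 in resistant C17.2, and 33.64 and 35.07 against 33.41 and 35.50 in C3.2. Its log2 fold change was 0.03 (-0.11 to 0.17) in C17.2 and -0.06 (-0.20 to 0.08) in C3.2, with limma adjusted p = 0.777 and 0.54. In C3.2 the libraries overlapped, and the interval allows a change of up to 0.20 in size on the log2 scale. Gene-level TPM does not separate the BIM isoforms, and its exons overlap those of MIR4435-2HG on the other strand (3.22 to 6.80 TPM).

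BID, which caspase 8 cleaves to link death receptors to mitochondria, held 35.93 and 33.92 TPM in parental and 44.71 and 41.65 in resistant C17.2. In C3.2 it held 40.31 and 44.54 against 44.64 and 42.79 TPM. After scaling its log2 fold change was 0.14 (-0.0049 to 0.28) and -0.02 (-0.17 to 0.12), with limma adjusted p = 0.138 and 0.858. In C17.2 the resistant libraries lay above the parental ones, by a step that did not pass the test, and in C3.2 they overlapped. BAD, a BH3-only protein that is held inactive by phosphorylation and 14-3-3 binding, was the noisiest member. It held 14.88 and 12.93 against 15.49 and 11.01 TPM in C17.2, and 16.00 and 17.40 against 19.65 and 18.04 in C3.2. Its log2 fold changes of -0.23 (-0.59 to 0.13) and 0.10 (-0.26 to 0.46) had limma adjusted p = 0.306 and 0.71. The 2 resistant libraries of C17.2 differed more than the group means did: without resistant replicate 1 the log2 fold change was -0.47 and passed (limma adjusted p = 0.0178), and without resistant replicate 2 it was 0.02. BAD exons overlap those of GPR137 on the other strand (10.4 to 15.74 TPM), and the strand setting of the counting is not given in the sources used here. BID lies on chromosome 22 (17734138 to 17774770, minus strand) and BAD on chromosome 11 (64269830 to 64284704, minus strand).

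Summed over the 5 BH3-only members, TPM was 120.3 ± 5.6 (SD, n = 2) in parental and 119 ± 2.0 in resistant C17.2, and 115.7 ± 5.6 and 113.4 ± 1.0 in C3.2. These sums overlapped between parental and resistant cells in both clones. After scaling between libraries they did not: they were 118.5 and 117.8 against 107.4 and 101.7 in C17.2, and 125.2 and 129.6 against 117 and 121.6 in C3.2, lower in each resistant library. The makeup of the sum differed too. PMAIP1 made up 23.0% of the sum in parental and 14% in resistant C17.2, and 16.6% and 13% in C3.2. BBC3 made up 3.77% and 1.00% in C17.2, and 2.64% and 1.48% in C3.2. BCL2L11 and BID together were the larger part, with 32.6% and 29.0% in parental and 37.6% and 36.3% in resistant C17.2. In C3.2, BCL2L11 made up 29.7% and 30.4%, and BID 36.7% and 38.5%.

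Among the anti-apoptotic members, MCL1 rose in C17.2. The 3 members summed to 131.2 and 118.2 TPM in parental and 153.7 and 161.7 in resistant C17.2, and to 122.4 and 123.7 against 135.5 and 131.6 in C3.2. MCL1 is a short-lived protein with a short-lived RNA, and its gene lies on chromosome 1 (150560895 to 150579738, minus strand). In C17.2 it held 45.63 and 40.86 TPM in parental and 65.59 and 68.75 in resistant libraries. In C3.2 it held 48.52 and 47.83 TPM in parental and 58.07 and 53.23 in resistant libraries. The resistant libraries lay above the parental ones in both clones. The log2 fold change was 0.47 (0.35 to 0.58; limma adjusted p = 0.00108) in C17.2, a ratio of mean scaled TPM of 1.39. In C3.2 it was 0.14 (0.02 to 0.25), a ratio of 1.10, and did not pass (limma adjusted p = 0.121). It passed in C3.2 after quantile normalization (0.21) and with TPM rescaled over protein-coding genes (0.24). Gene-level TPM does not separate the long form of MCL1 from its pro-apoptotic short form. Of rows that share its exons, ADAMTSL4-AS1 held 0.54 to 1.32 TPM and ADAMTSL4 0.02 to 0.20.

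BCL2, the target of venetoclax, was the highest member and did not pass in either clone. It held 66.69 and 62.09 TPM in parental and 70.32 and 76.71 in resistant C17.2, and 57.36 and 58.97 against 63.81 and 64.77 in C3.2. In C17.2 the deposited values did not overlap, but after scaling they did, and the log2 fold change was 0.03 (-0.09 to 0.15). In C3.2 the resistant libraries lay above the parental ones with a log2 fold change of 0.08 (-0.04 to 0.20), and limma adjusted p was 0.72 and 0.369. The gene spans 196783 bases of chromosome 18 (63123346 to 63320128, minus strand). BCL2L1, which encodes the long anti-apoptotic BCL-XL and the short pro-apoptotic BCL-XS, lies on chromosome 20 (31664452 to 31723989, minus strand). It held 18.91 and 15.30 against 17.77 and 16.21 TPM in C17.2, where the libraries overlapped, and 16.52 and 16.87 against 13.61 and 13.63 in C3.2, where they did not. Its log2 fold change was -0.16 (-0.37 to 0.05) in C17.2 and -0.34 (-0.55 to -0.13) in C3.2, with limma adjusted p = 0.24 and 0.0565. Parental C3.2 held 1.28 times the mean scaled TPM of resistant cells, and in C3.2 the gene passed in 0 of 16 alternatives by limma, with an unadjusted p of 0.00697.

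Of the effectors, BAX rose in C17.2. BAX moves from the cytosol to mitochondria when activated, and its gene lies on chromosome 19 (48954815 to 48961798, plus strand). It held 29.54 and 26.95 TPM in parental and 36.62 and 38.95 in resistant C17.2, and 31.06 and 32.44 against 35.66 and 34.08 in C3.2. The resistant libraries lay above the parental ones in both clones. The log2 fold change was 0.25 (0.15 to 0.35; limma adjusted p = 0.00638) in C17.2, a ratio of 1.2, and 0.07 (-0.03 to 0.17; limma adjusted p = 0.347) in C3.2. BAK1, whose protein sits in the mitochondrial membrane, held 6.13 and 5.75 against 7.99 and 7.82 TPM in C17.2 and 6.16 and 5.77 against 6.12 and 6.02 in C3.2. The libraries of C17.2 did not overlap and those of C3.2 did. Its log2 fold change was 0.22 (0.06 to 0.37; limma adjusted p = 0.0525) in C17.2 and -0.04 (-0.19 to 0.12; limma adjusted p = 0.774) in C3.2. In C17.2 it passed with TPM as deposited (0.36, where the median of all genes moved by 0.135), after quantile normalization (0.26) and over protein-coding genes (0.32). BAK1 lies on chromosome 6 (33572547 to 33580293, minus strand), and its pseudogene BAK1P1, which could share reads with it, was listed at 0.44 to 1.33 TPM.

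Whether the change of a member differed between the clones was tested as an interaction, C17.2 minus C3.2. 3 of 10 members passed, where 9.96% of all tested genes did. BBC3 fell further in C17.2 by a log2 value of -0.76 (-1.10 to -0.43; limma adjusted p = 0.0232) and PMAIP1 by -0.43 (-0.63 to -0.23; limma adjusted p = 0.0268). MCL1 rose further in C17.2 by 0.33 (0.17 to 0.49; limma adjusted p = 0.0311). These 3 calls were not stable: BBC3 passed in 8 of 15 alternatives, PMAIP1 in 7 and MCL1 in 5. Leaving out a parental library of either clone ended all 3, with limma adjusted p from 0.0653 (MCL1 without C17.2 parental replicate 1) to 0.104 (PMAIP1 without C3.2 parental replicate 1), as did leaving out C3.2 resistant replicate 2 (0.0551, 0.0645 and 0.0671). Without C17.2 resistant replicate 1 they were 0.0579, 0.064 and 0.073, and without its resistant replicate 2 that of MCL1 was 0.0903. For BAX the difference was 0.18 (0.04 to 0.32; limma adjusted p = 0.103), so a larger rise in C17.2 was not shown.

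Ratios between members within a library do not depend on library scaling and are given as descriptions. BCL2 to MCL1 was 1.46 and 1.52 in parental and 1.07 and 1.12 in resistant C17.2, and 1.18 and 1.23 against 1.10 and 1.22 in C3.2. The groups were apart in C17.2 and overlapped in C3.2. BCL2L1 to MCL1 was 0.414 and 0.374 against 0.271 and 0.236 in C17.2, and 0.340 and 0.353 against 0.234 and 0.256 in C3.2, lower in each resistant library than in each parental one. BCL2 to BCL2L1 was 3.47 and 3.50 against 4.69 and 4.75 in C3.2 and overlapped in C17.2 (3.53 and 4.06 against 3.96 and 4.73). The sum of the 3 anti-apoptotic members over that of the 5 BH3-only members was 1.06 and 1.02 against 1.28 and 1.37 in C17.2. In C3.2 it was 1.10 and 1.03 against 1.19 and 1.17. This ratio was higher in each resistant library than in each parental library of its clone, and RNA ratios say nothing of protein levels. Its BH3-only sum leaves out BMF, which rose in C3.2, and a ratio with BMF was not computed. BAX to BAK1 was 4.58 to 4.98 in C17.2 and 5.04 to 5.83 in C3.2 and overlapped only in C17.2 between parental and resistant cells.

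**Figure D3:**
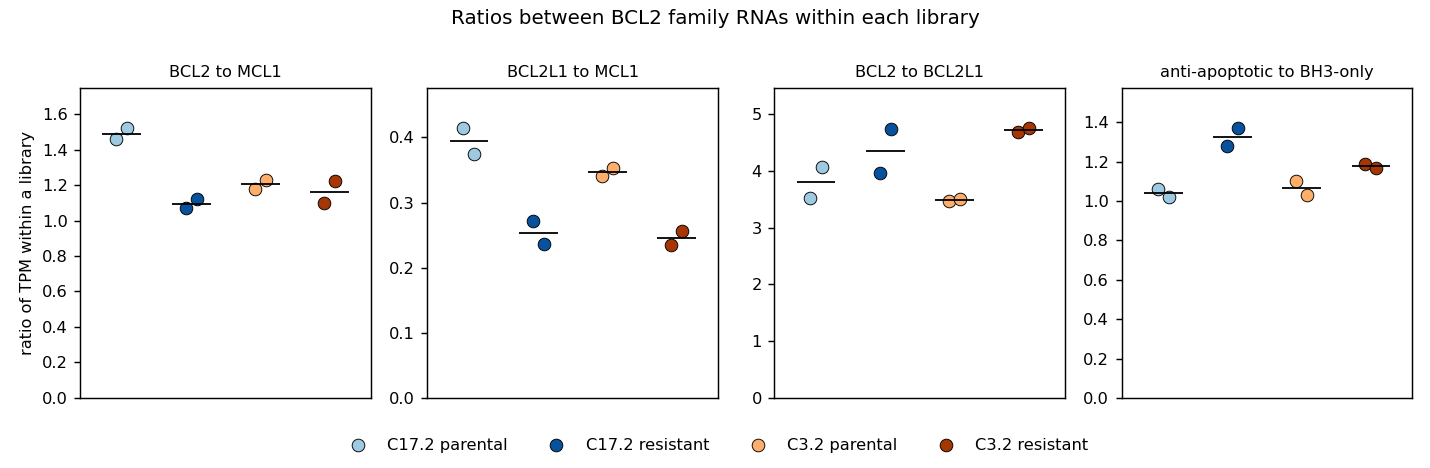
Ratios of TPM between members within each library (linear axes from 0), colored by group, with a bar at the mean of the 2 libraries. BCL2L1 to MCL1 is lower and the anti-apoptotic to BH3-only ratio higher in the resistant libraries of both clones, while BCL2 to MCL1 differs in C17.2 and overlaps in C3.2.

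Genes of the same pathway were taken from lists chosen with earlier results of these data known. Of 13 other family members, 7 were under 1 TPM in all libraries (BCL2A1, BCL2L10, BOK, BIK, HRK, BCL2L14 and BCL2L15) and were not tested. BMF, a BH3-only protein tied to the cytoskeleton, changed in opposite directions. It held 28.19 and 26.42 TPM in parental and 19.53 and 18.66 in resistant C17.2, and 15.43 and 16.01 against 22.58 and 22.60 in C3.2. It fell in C17.2 (log2 fold change -0.65, limma adjusted p = 0.000493) and rose in C3.2 (0.43, limma adjusted p = 0.00638), and the difference of -1.08 passed (limma adjusted p = 0.00117). The rise in C3.2 did not pass without parental replicate 1 (0.0582) or parental replicate 2 (0.0532) or with that clone fitted alone (0.0689), whereas the difference passed in 15 of 15 alternatives. BCL2L12 rose in C17.2 (0.41, limma adjusted p = 0.036), passing in 7 of 16 alternatives, and its exons overlap those of IRF3, listed at 36.95 to 45.13 TPM. BNIP3L, a mitophagy receptor, fell in C3.2 (-0.47, limma adjusted p = 0.0281), passing in 7 of 16. The other family list thus had 1 of 6 tested genes higher and 1 lower in each clone, with medians of 0.06 and -0.09. Over all tested genes 13.4% passed as higher and 13.9% as lower in C17.2, and 4.43% and 6.91% in C3.2.

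Downstream of the pore, 5 of 11 genes of mitochondrial release and the apoptosome rose in C17.2 (median 0.19), beside 13.4% of all tested genes. None fell, beside 13.9% (6 of 11 had an unadjusted p under 0.05 in limma, 1 of them lower). In C3.2, 1 of 11 fell (median -0.02), beside 6.91%. CYCS, cytochrome c itself, held 20.27 and 17.56 TPM in parental and 29.59 and 31.98 in resistant C17.2 (log2 fold change 0.52, limma adjusted p = 0.00377). In C3.2 CYCS held 30.82 and 28.05 against 30.11 and 29.81 TPM, so that parental C17.2 was the low group. MTCH2, a mitochondrial receptor for the truncated form of BID, rose in C17.2 (0.41, limma adjusted p = 0.00514), and VDAC1, a channel of the outer membrane, was the gene that fell in C3.2 (-0.20, limma adjusted p = 0.0342, passing in 4 of 16 alternatives). Of the 7 caspase genes analysed here none passed by limma in either clone (medians 0.02 in each), where 27.3% and 11.3% of all tested genes did. In each clone 1 had an unadjusted p under 0.05, with a lower level in resistant cells. Of 5 tested inhibitor of apoptosis genes, 3 rose in C17.2 (median 0.27), beside 13.4% of all tested genes. Among them were BIRC5 (survivin, 0.34, limma adjusted p = 0.00803, passing in 15 of 16 alternatives) and XIAP (0.29, limma adjusted p = 0.0408, passing in 6 of 16). In C3.2 none passed by limma or at an unadjusted p under 0.05 (median 0.14).

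Of 7 tested death receptor genes, none passed in C17.2 by limma (3 had an unadjusted p under 0.05, median -0.02), where 27.3% of all tested genes did. In C3.2, 2 rose (median 0.15), beside 4.43%. TNFRSF10B, the TRAIL receptor DR5, held 3.26 and 3.40 TPM in parental and 7.41 and 8.01 in resistant C3.2 (log2 fold change 0.96, limma adjusted p = 0.00258), against 7.02 and 6.49 and 5.57 and 6.72 in C17.2. The 4 libraries of C17.2 lay above the parental and below the resistant libraries of C3.2, and the difference between the clones passed (-1.22, limma adjusted p = 0.00362). RHOBTB2, which overlaps the exons of TNFRSF10B on the other strand, was higher in resistant cells of both clones. It held 2.01 and 1.77 against 4.83 and 5.09 TPM in C3.2, and 2.93 and 3.01 against 7.18 and 6.64 in C17.2. The strand setting is not known, so how reads were divided between the 2 genes is uncertain. TNFRSF1A, a TNF receptor, held 7.40 and 6.07 against 12.05 and 11.43 TPM in C3.2 (0.67, limma adjusted p = 0.00989). With C3.2 fitted alone the limma adjusted p was 0.0628 for TNFRSF10B and 0.112 for TNFRSF1A, and both passed in the other 15 of 16 alternatives.

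BAD is held inactive by kinases and 14-3-3 proteins. Of these genes 8 of 11 rose in C17.2 (median 0.29), beside 13.4% of all tested genes. None fell, beside 13.9%, and 9 of 11 had an unadjusted p under 0.05 in limma, all of them higher. YWHAQ, a 14-3-3 protein, held 132.80 and 130.30 TPM in parental and 214.25 and 229.24 in resistant C17.2 (log2 fold change 0.59, limma adjusted p = 0.000406). PRKACA, the catalytic subunit of protein kinase A, rose there too (0.54, limma adjusted p = 0.00182). In C3.2, 1 of 11 fell (median 0.06), beside 6.91% of all tested genes. It was the kinase gene PIM1 (-0.24, limma adjusted p = 0.0382, passing in 3 of 16 alternatives). Of 6 tested genes for turnover of the MCL1 and NOXA proteins, none passed in either clone by limma, where 27.3% and 11.3% of all tested genes did. An unadjusted p under 0.05 was found for 2 and 1 of them in C17.2 and C3.2, and the medians were 0.01 and -0.03.

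**Figure D4:**
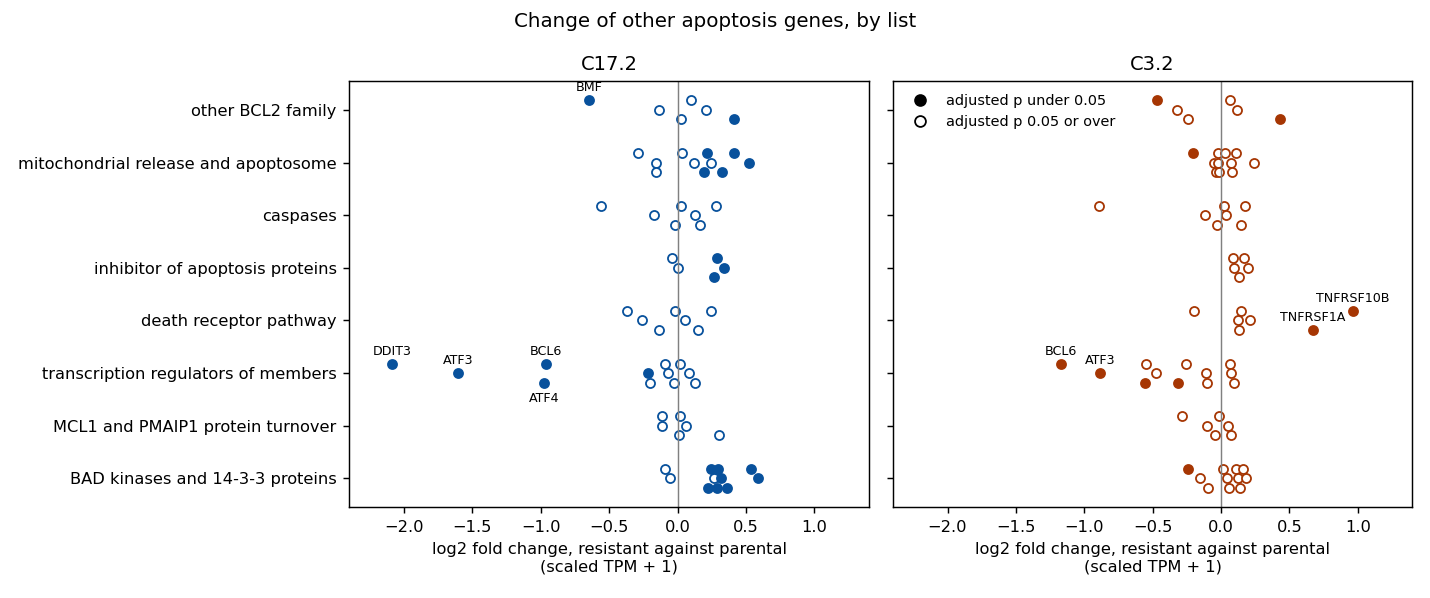
Log2 fold change of scaled TPM + 1, resistant against parental, of each tested gene in 8 lists of apoptosis genes, in C17.2 (left) and C3.2 (right), with filled points for limma adjusted p under 0.05 and names beside filled points beyond 0.6 in size. Most BAD kinase and 14-3-3 genes lie right of 0 with filled points in C17.2 (8 of 11, beside 13.4% of all tested genes). The filled points among transcription regulators lie left of 0 in both clones.

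Among 12 tested transcription factors known to regulate members, 5 fell in C17.2 (median -0.15) and 4 in C3.2 (median -0.28), beside 13.9% and 6.91% of all tested genes. None rose, where 13.4% and 4.43% of all tested genes did (unadjusted p under 0.05 in limma for 0 higher genes in either clone). ATF3, a stress factor, held 6.71 and 7.93 TPM in parental and 2.14 and 1.72 in resistant C17.2, and 3.44 and 3.59 against 1.63 and 1.49 in C3.2. It fell in both, by -1.60 and -0.88 on the log2 scale (limma adjusted p = 0.000387 and 0.00923), the second of which passed in 13 of 16 alternatives. BCL6, a transcriptional repressor known from germinal center B cells, held 13.56 and 14.35 against 7.61 and 7.30 TPM in C17.2 and 14.64 and 17.11 against 6.77 and 6.93 in C3.2. Its log2 fold changes were -0.96 and -1.17 (limma adjusted p = 0.000678 and 0.00121).

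DDIT3 encodes CHOP, which acts with ATF4 and is known to induce BBC3 and PMAIP1 under stress of the endoplasmic reticulum. It held 34.64 and 35.44 TPM in parental and 7.20 and 9.66 in resistant C17.2 (log2 fold change -2.09, limma adjusted p = 0.000277), and 11.70 and 11.88 against 9.58 and 6.91 in C3.2 (-0.55, limma adjusted p = 0.0635). Parental C17.2 stood above the other 3 groups. DDIT3 shares exons with AC022506.1 on the same strand, which had 27.89 and 12.48 TPM in parental C17.2 and 0 in each other library, and with MARS on the other strand (72.16 to 180.76 TPM), so how reads were divided among them is uncertain. ATF4 is outside the rule for named genes and was chosen after its values were seen. ATF4, the factor of the integrated stress response, held 361.28 and 337.00 against 197.20 and 198.90 TPM in C17.2 and 213.81 and 222.30 against 157.80 and 152.66 in C3.2. It fell in both (-0.98 and -0.55, limma adjusted p = 3.07e-05 and 0.000881), and the groups did not overlap. Whether any of these factors had a part in the change of the members was not tested.

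The member that changed most was BBC3 in both clones, and the 3 protein-coding genes whose log2(scaled TPM + 1) followed it most closely over the 8 libraries were ANKRD36C (Pearson's r = 0.994), EPDR1 (0.994) and FCRLA (0.992). Of 11209 genes compared, 141 had r above 0.95, and the points share their libraries, clones and scaling, so r is a description. ANKRD36C fell by -1.24 in C17.2 and -0.63 in C3.2, EPDR1 by -1.13 and -0.49, and FCRLA, a B-cell protein, by -1.92 and -0.94 (limma adjusted p from 0.000158 to 0.0174).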

How the data were processed

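Total RNA of 8 SEM libraries, depleted of ribosomal RNA, was sequenced by the authors, who used Trim Galore 0.6.3 for adapters, STAR 2.7.9a for alignment on GRCh38.p13, and RSEM 1.3.1 with Gencode release 31 for gene levels. The labels give single-end and the methods paired-end reads, and the strand setting is not given in the sources used here. The authors deposited TPM per gene and library, rounded to 2 decimals, with no scaling between libraries and no depth. Members, gene lists and motifs were chosen with earlier results of these data known, and 2 genes of these lists are not reported here.

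A gene was tested when any library reached a TPM of 1 (15614 of 60754). Library factors were trimmed means of log2 ratios to the average library, without the outer 30% of ratios and 5% of levels on either side. Then log2(scaled TPM + 1) was fitted in limma 3.58.1 (R 4.3.3) with 4 groups in 1 model, eBayes with an intensity trend, two-sided Benjamini-Hochberg adjusted p and a threshold of 0.05. Counts, which limma-voom as used in the study requires, were not used here. The model was tested on simulated data, with 200 of 15614 genes changed by 1 on the log2 scale in C17.2 only. Noise was drawn independently for each library. Of the changed genes 82.5% were recovered, and 2.37% of calls were false. Smaller changes, as most of those called among the members, were not simulated. Besides the 10 members, the genes named were up to 2 with the largest rise and 2 with the largest fall per list and clone, past the threshold with no overlap of libraries, and the 3 closest to the most changed member. Positions came from Gencode release 44 on GRCh38 and promoters from RefSeq, found for 9 of 10 members. Alternatives were run for the scaling, the filter, the pseudocount of 1, the intensity trend, the fit of both clones together and each library left out, and not for the trimming, the threshold, the rule for named genes or the sources of positions and promoters. Tables and plots were made in Python 3.11.15 with pandas 2.3.3 and matplotlib 3.10.9.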

Additional observations from a re-analysis of the deposited data

Results flagged for a closer look

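The change from parental to resistant cells differed between the clones for 12 named genes by the interaction in limma, given as the log2 fold change in C17.2 minus that in C3.2, with adjusted p under 0.05. Among the BCL2 family these were MCL1 (0.33), BBC3 (-0.76) and PMAIP1 (-0.43), and, outside the 10 members, BMF (-1.08). Downstream of the mitochondrial pore they were CYCS (0.56), MTCH2 (0.38) and VDAC1 (0.42). Among the genes that hold BAD inactive they were YWHAQ (0.48) and PRKACA (0.37), and among receptors TNFRSF10B (-1.22). Among transcription factors they were DDIT3 (-1.54) and ATF4 (-0.42). BMF, YWHAQ and TNFRSF10B passed in 15 of 15 alternatives, ATF4 in 14, DDIT3 and VDAC1 in 11, BBC3 and CYCS in 8, PMAIP1 in 7, MCL1 in 5, MTCH2 in 3 and PRKACA in 1. Over all tested genes, 9.96% passed the interaction. The named genes outside the 10 members were picked for their change within a clone in these same libraries. ATF4 was picked after its values were seen. Such a choice favors a pass, so how many of them passed is a description. Clone and any batch behind the number series of the library names cannot be told apart in the differences above.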

How the results depend on the processing

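MCL1, BAX, BBC3 and PMAIP1 kept their direction and call in C17.2 in 16 of 16 alternatives, and in C3.2 BBC3 passed in 12 and PMAIP1 in 13 of 16. With TPM as deposited the median of all genes shifted by 0.135 in C17.2 and 0.0531 in C3.2, higher calls made up 75.1% and 57.8% of calls in place of 49.0% and 39.0% (64% in the interaction in place of 49.6%), and the interaction called 1 member. Signs changed there for values that had not passed: PIM1 in C17.2 (0.092), BAK1 (0.022), BCL2L11 (0.0037), BID (0.044) and CYCS (0.026) in C3.2, and the interaction of BCL2 (0.046). With quantile normalization they changed for BID (0.045) and CYCS (0.0092) in C3.2, where 50.8% of calls were higher. With TPM rescaled over protein-coding genes 4 members passed in C3.2 (64.6% and 69.7% of calls higher), and PIM1 in C17.2 (0.025) and BAK1 (0.059), BCL2L11 (0.041), BID (0.081) and CYCS (0.064) in C3.2 changed sign. With a pseudocount of 0.1, a filter at 2 libraries or no intensity trend 4 members passed in C17.2 and 2 in C3.2, and 4055 to 4306 and 1486 to 1850 genes, while the interaction called 3, 3 and 2 members. With no filter 1170 genes passed in C3.2, in place of 1770, and 1 member in the interaction. With C3.2 fitted alone 0 members passed in limma (4 had an unadjusted p under 0.05) and 74 genes. With C17.2 fitted alone 4 members and 3562 genes passed in limma, in place of 4259 genes. Both fits had fewer libraries to estimate the spread, and why C3.2 lost more calls was not tested.

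Leaving out each library in turn, in which the lone library of a group is assumed to vary like the others, called 2376 to 4538 genes in C17.2, in place of 4259, 326 to 1789 in C3.2 and 542 to 1740 in the interaction, in place of 1555. Members called ranged from 0 to 2 in C3.2 and from 0 to 3 in the interaction. Values that had not passed and changed sign were, in C17.2, BCL2 (-0.010 to 0.070), BAD (-0.47 to 0.019) and BNIP3L (-0.105 to 0.16), and in C3.2, BAK1 (-0.098 to 0.025), CYCS (-0.13 to 0.049), MTCH2 (-0.055 to 0.11), BID (-0.070 to 0.025) and BCL2L11 (-0.14 to 0.016). The causes of these shifts were not tested. No paired analysis was possible because the labels give no replicate numbers, and those used here follow the order of the library names. Depth is unknown, so no counting error can be given, also for BBC3, at 1.03 TPM in its lowest library.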
